A study of Mus musculus with 6 samples.

Results

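Nuclear receptors are transcription factors, most of which bind DNA directly, and many of them are switched by small fat-soluble ligands. The 37 nuclear receptor genes described here were taken by name, as GENCODE release M21 gives them, and all 37 were found among the 55450 genes counted by bulk RNA-Seq in isolated mouse hepatocytes. Undamaged liver (0 h) gave 3 libraries, and 3 more came from mice 48 h after partial hepatectomy (PHx), an operation that takes out the larger share of the liver. All libraries came from mice on a normal diet, of the strain C57BL/6 per the labels and C57BL/6J per the study's methods, male per those methods and 10 to 12 weeks old per the labels, with a somewhat younger age in the methods. The labels give the protocol PHx for both groups, and no sham-operated mice were analysed here, so the operation and the time after it cannot be told apart. Hepatocytes were freed by 2-step collagenase perfusion, one preparation per library, and bulk RNA averages over all cells of a preparation. In such samples, fewer cells of a type and less RNA per cell cannot be told apart.

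In the liver, nuclear receptors couple metabolite levels to gene expression. The receptors for bile acids, oxysterols, fatty acids and foreign compounds usually pair with a retinoid X receptor (RXR) and act on genes of bile acid, lipid and drug metabolism. Others bind as single proteins or pairs of the same protein, among them the steroid receptors, HNF4α, which maintains the hepatocyte state, and the REV-ERB repressors of the circadian clock. The NR4A receptors are immediate early genes, whose transcripts appear within minutes of a stimulus.

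Gene counts summed to between 31419443 and 36346220 per library, so that 3 counts, taken as the floor, correspond to 0.0825 to 0.0955 CPM (counts scaled to a common library total). The hepatocyte label was borne out by the markers: 15 hepatocyte genes summed to 122056 to 144004 CPM at 0 h and 86589 to 113171 CPM at 48 h, with 5 of them lower and 2 higher. The shares of all genes tested to set beside this and the following marker counts are 19.3% lower and 21.4% higher. By contrast, 14 leukocyte genes summed to at most 4.90 CPM, with 8 of them at or under 3 counts in every library. All 8 proliferation markers were higher at 48 h (568 to 737 CPM in sum, against 16.1 to 19.4 CPM at 0 h). All 14 endothelial markers were lower at 48 h (233 to 264 CPM in sum, against 335 to 514 CPM). Of 11 stellate and fibroblast markers tested, 3 were lower and 1 was higher (81.5 to 102 CPM, against 119 to 184 CPM). Of 12 Kupffer cell markers, 3 were higher (119 to 147 CPM, against 83.1 to 124 CPM), against a background of 21.4% of all genes. Of 10 cholangiocyte markers, 3 were tested and 2 of these, Spp1 and Prom1, were higher (17.7 to 26.6 CPM in sum over the 10, against 9.51 to 20.9 CPM), while Krt7, Epcam, Cftr and Tspan8 were at or under 3 counts in every library. The part of these other cell types in the results below was not tested.

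After PHx, 10 nuclear receptor genes fell and 2 rose. Of the 37 genes, 35 passed the filter of 10 counts in 3 libraries or more and were tested with edgeR (quasi-likelihood, Benjamini-Hochberg adjustment, threshold 0.05). The 10 that fell were Nr0b2, Nr1d1, Nr4a1, Thra, Nr6a1, Rxrg, Thrb, Nr2c1, Rxrb and Nr2f6, the 2 that rose were Esr1 and Nr1d2, and 23 did not pass. The 12 are 34.3% of those tested, against 40.7% of the 17037 genes tested in all. By direction, 28.6% were lower, against 19.3% of all genes tested, and 5.71% were higher, against 21.4%. The median log2 fold change of the 35 genes was -0.23, against -0.0033 over all genes tested. Nr0b2, Nr1d1 and Nr4a1 also reached a log2 fold change of 1 in size, which is 8.57%, against 17.6% of all genes. For 18 of the 35 genes the 0 h and 48 h values did not overlap, or 51.4%, against 52.7% of all genes. In 13 of them all 48 h libraries lay below all 0 h libraries (25.0% of all genes did so), and in 5 all lay above (27.8% of all genes). The split between directions moved with the normalization. With library size only, 6 were higher and 7 lower, because that scaling shifted the median log2 fold change of all genes by 0.20. With upper quartile factors, and with TMM factors taken over protein-coding genes alone, 2 were higher and 14 lower, while all genes split into 3142 higher and 3924 lower with the former and 3337 higher and 3710 lower with the latter.

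**Figure D1:**
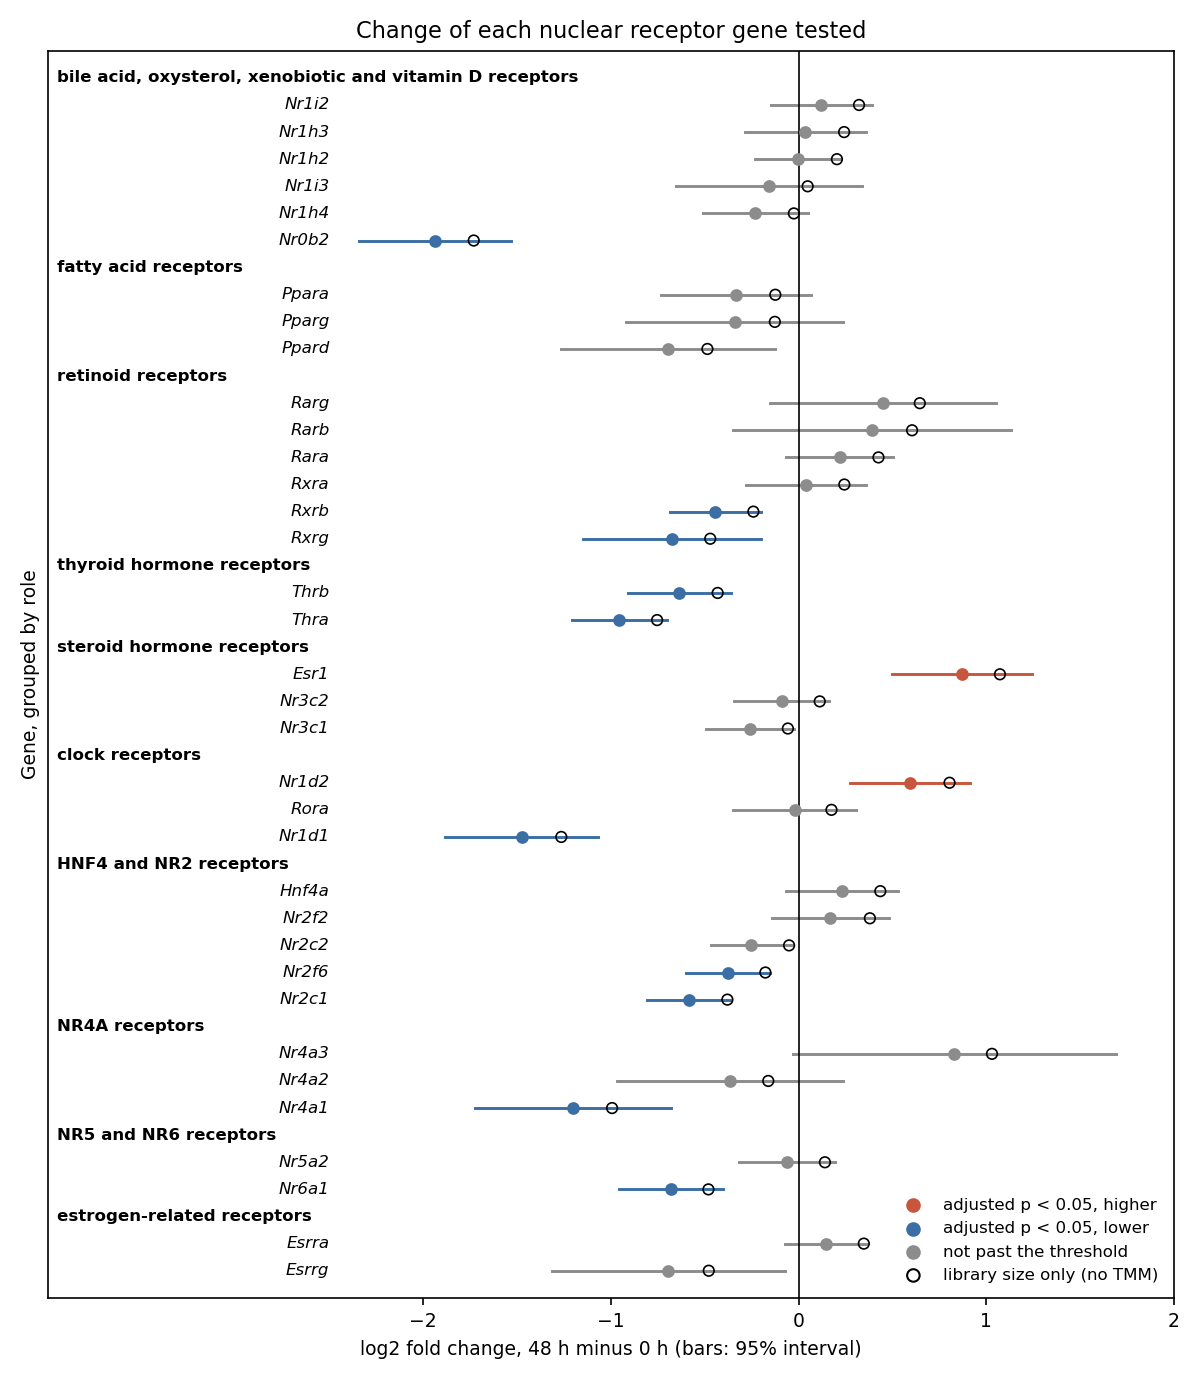
Log2 fold change (48 h minus 0 h) of the 35 nuclear receptor genes tested, grouped by role, with 95% intervals from edgeR. Colored points are past the threshold of 0.05, and open circles give the value with library size only, which lies to the right of the main value for each gene and moves genes near 0 across it.

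Compared per exon length, in TPM (counts per exon length, scaled to a common total), the family spanned a wide range in undamaged liver. TPM here were computed from the counts and the summed exon length of each gene, without TMM factors. Hnf4a, which encodes HNF4α, stood highest at 429 ± 32.9 TPM (SD, n = 3), followed by Rxra at 305 ± 46.4 TPM, Nr1d1 at 223 ± 29.9 TPM and Nr0b2 at 122 ± 7.36 TPM. This order held in each of the 3 libraries at 0 h. The next ranks, Nr1h4 at 94.4 ± 6.47 TPM, Ppara at 84.7 ± 11.1 TPM and Nr1h3 at 77.7 ± 14.1 TPM, lay within each other's spread. The 5 highest genes of each library together carried 62.9% ± 0.703 (0 h) and 65.1% ± 0.703 (48 h; SD, n = 3) of the family's summed TPM. At the other end, Vdr, the vitamin D receptor gene, had 1, 4 and 1 counts at 0 h and 1 count in each library at 48 h. Nr2f1 had 1, 8 and 9 counts at 0 h and 11, 8 and 11 at 48 h. These were the 2 genes not tested, and Vdr was at or near the floor of 3 counts throughout. At 48 h, Hnf4a (603 ± 71.2 TPM) and Rxra (376 ± 15.1 TPM) again ranked first and second in every library. The following 3, Nr1d1 at 96.6 ± 27.1 TPM, Nr1h4 at 96.4 ± 16.8 TPM and Nr1h3 at 95.5 ± 11.1 TPM, could not be ordered beyond their spread. Nr0b2 moved from rank 4 to rank 13 of the 37 genes, Nr4a1 from rank 8 to rank 15, and Nr1d2 from rank 15 to rank 9.

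**Figure D2:**
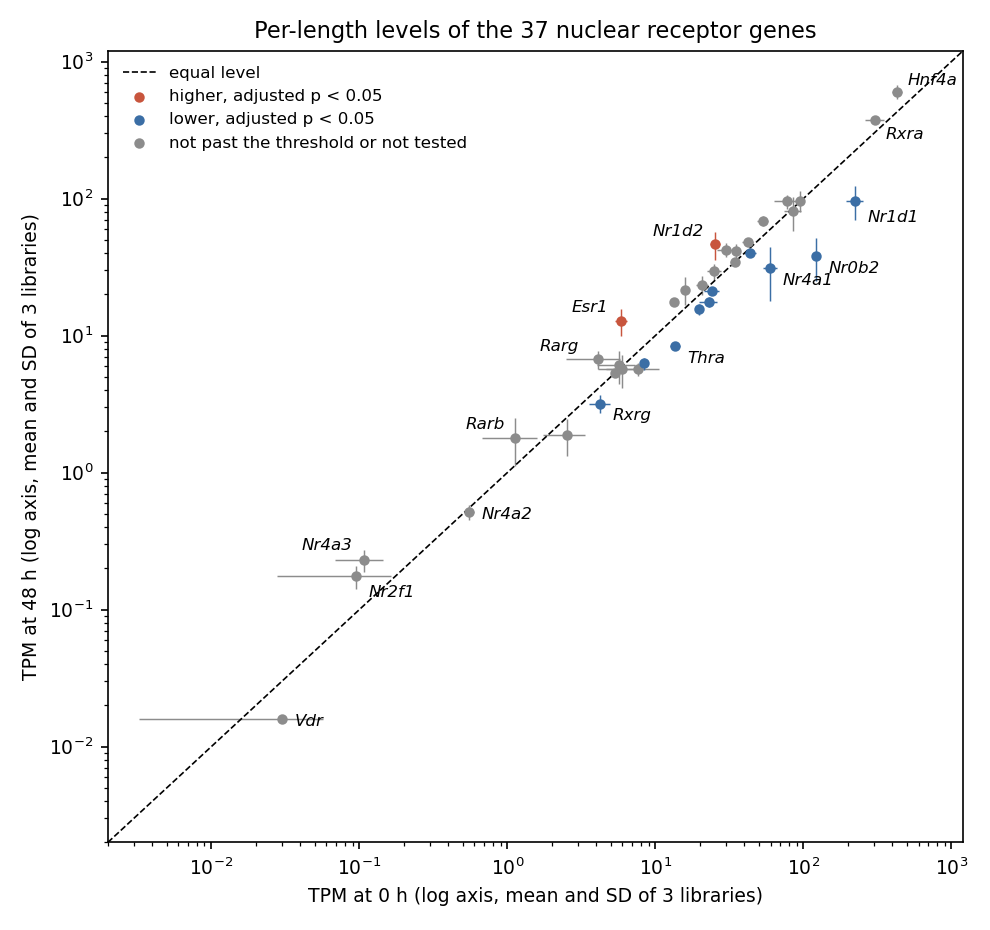
Mean per-length level (TPM, log axes) of the 37 nuclear receptor genes at 0 h and at 48 h, with SD over 3 libraries. Points below the dashed line of equal level, such as Nr1d1, Nr0b2 and Nr4a1, stood lower in TPM at 48 h. Hnf4a and Rxra stayed the 2 highest genes. TPM carry no TMM factors, so the line is not that of no change in the edgeR comparison. Nr1h4, for example, lay above it (94.4 TPM at 0 h, 96.4 TPM at 48 h) but had a log2 fold change of -0.23.

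The largest change was in Nr0b2 (ENSMUSG00000037583.2; chromosome 4, 133553376 to 133556536, GRCm38), which encodes SHP, a receptor without a DNA-binding domain that represses other nuclear receptors and is itself induced by the bile acid receptor FXR. In TMM-normalized CPM, Nr0b2 stood at 52.2, 55.1 and 51.7 in the 0 h libraries and at 11.03, 11.7 and 18.7 in the 48 h libraries. The 48 h values lay far below the narrow 0 h range, and replicate 3 was the highest of them. The log2 fold change was -1.94 (standard error, SE, 0.183, adjusted p = 2.07e-05 from edgeR), a level 3.84-fold lower. The transcript of FXR itself, Nr1h4, stood at 83.7 ± 3.46 CPM (SD, n = 3) at 0 h and 71.3 ± 11.5 CPM at 48 h, and its log2 fold change of -0.23 (95% interval -0.51 to 0.05) did not pass the threshold (adjusted p = 0.171 from edgeR). Without 48 h replicate 2 it was -0.37 and passed (adjusted p = 0.0443). The ratio of Nr0b2 to Nr1h4 in TPM, which does not depend on the scaling of libraries, was 1.27, 1.29 and 1.31 at 0 h and 0.357, 0.281 and 0.570 at 48 h. The 250 bases before the RefSeq start of Nr0b2 (chr4:133553126-133553375, GRCm38.p6, plus strand) are given because no other gene of the family moved as far. GENCODE M21 has no gene in this window. Capitals mark an E-box, CACGTG, the palindrome bound by basic helix-loop-helix factors such as the clock proteins, which starts 195 bases before the start.
Nr0b2: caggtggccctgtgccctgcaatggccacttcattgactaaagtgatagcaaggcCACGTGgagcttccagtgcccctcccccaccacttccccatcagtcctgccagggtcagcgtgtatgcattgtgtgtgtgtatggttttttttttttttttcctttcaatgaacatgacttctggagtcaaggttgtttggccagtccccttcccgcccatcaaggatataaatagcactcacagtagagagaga
The letters CACGTG occur in the 250 bases before the start in 6.02% of all 32851 RefSeq promoters, and in 4 of the 54 promoter entries of the family.

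The other receptors for bile acids, oxysterols and foreign compounds did not pass the threshold. Nr1h3 and Nr1h2, which encode the oxysterol receptors LXRα and LXRβ, had log2 fold changes of 0.04 (95% interval -0.29 to 0.36) and -0.0016 (-0.23 to 0.23). Nr1i2, which encodes the pregnane X receptor (PXR), a sensor of drugs, stood at 50.7, 47.2 and 58.7 CPM at 0 h and 61.2, 59.6 and 49.6 CPM at 48 h. Its log2 fold change was 0.12 (adjusted p = 0.459 from edgeR), and it was 0.32 with library size only (adjusted p = 0.0412) and 0.0444 to 0.22 with 1 library left out. Nr1i3, which encodes the constitutive androstane receptor (CAR), was counted at 7.81 to 12.5 CPM at 0 h and 6.18 to 9.80 CPM at 48 h. Tomm40l, on the other strand, covers 74.9% of its exon bases. Whether reads were counted by strand is not given in the sources used here, so reads of these 2 genes cannot be told apart there, and the level of Nr1i3 is uncertain.

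The fatty acid receptors, which switch on fat oxidation and storage, all had negative log2 fold changes that did not pass the threshold. Ppara, the main member in hepatocytes, stood at 143, 117 and 116 CPM at 0 h and at 70.8, 116 and 110.2 CPM at 48 h. Replicate 1 at 48 h lay below all other libraries, replicate 3 lay just below the 0 h range and replicate 2 within it (log2 fold change -0.34, adjusted p = 0.165 from edgeR). Without 48 h replicate 1 the log2 fold change was -0.14. Ppard stood at 29.4, 12.2 and 25.1 CPM at 0 h and at 12.6, 14.8 and 13.8 CPM at 48 h. Its log2 fold change of -0.69 narrowly missed the threshold (adjusted p = 0.0526 from edgeR), and without 0 h replicate 2, the lowest of the 6 libraries, it was -0.997 (adjusted p = 0.000325). Without 0 h replicate 1 it was -0.45 (adjusted p = 0.202). It also passed with DESeq2, other filters and 2 of the other scalings, and did not with limma-voom or library size only. Pparg stood at 6.83 ± 2.28 CPM (SD, n = 3) at 0 h and 5.39 ± 1.26 CPM at 48 h, with a log2 fold change of -0.34 (adjusted p = 0.328 from edgeR). It was -0.60 and passed without 0 h replicate 2 (adjusted p = 0.0467), and -0.15 without 0 h replicate 3.

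Among the retinoid receptors, Rxrb and Rxrg fell, and Rxra and the retinoic acid receptor genes did not pass the threshold. Rxra encodes RXRα, the common partner of the receptors above, and stood at 750.0, 549.6 and 629 CPM at 0 h and 663, 658 and 663 CPM at 48 h. The 48 h values fell inside the 0 h range (log2 fold change 0.04, 95% interval -0.28 to 0.36). Rxrb stood at 41.8, 33.8 and 34.9 CPM at 0 h and at 26.7, 27.1 and 27.4 CPM at 48 h, a log2 fold change of -0.44 (SE 0.1099, adjusted p = 0.00879 from edgeR). Rxrg fell from 4.19, 2.97 and 4.13 CPM to 2.23, 2.74 and 2.09 CPM, a log2 fold change of -0.68 (SE 0.214, adjusted p = 0.0281 from edgeR). Both calls were lost with library size only (adjusted p = 0.118 and 0.105). The call of Rxrg was also lost with each of 4 libraries left out in turn, 0 h replicates 1 and 3 and 48 h replicates 1 and 3 (adjusted p = 0.0756 to 0.0883). It was lost with the replicate block as well (adjusted p = 0.0608 from edgeR). With library totals set aside, RXRα took 91.5% ± 0.325 (0 h) and 93.9% ± 0.140 (48 h; SD, n = 3) of the TPM summed over the 3 RXR genes, with no overlap between time points. The retinoic acid receptor genes Rara, Rarb and Rarg had log2 fold changes of 0.22, 0.39 and 0.45, with adjusted p-values of 0.199, 0.381 and 0.213 from edgeR. With 1 library left out, Rara was lowest at 0.0878 (without 0 h replicate 2), Rarb lay between 0.043 (without 48 h replicate 2) and 0.80 (without 0 h replicate 3), and Rarg was lowest at 0.16, without 0 h replicate 1. Rara was called higher with library size only (log2 fold change 0.43, adjusted p = 0.0237). Genes on the other strand, chiefly Top2b, cover 38.4% of the exon bases of Rarb.

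Both thyroid hormone receptor genes fell. Thra stood at 25.9, 21.8 and 24.9 CPM at 0 h and at 12.5, 12.9 and 12.0 CPM at 48 h, so that the 48 h libraries lay close together. Its log2 fold change was -0.96 (SE 0.114, adjusted p = 0.000105 from edgeR). Thrb, the main thyroid hormone receptor of liver, stood at 72.1, 54.1 and 70.1 CPM at 0 h and at 42.0, 40.0 and 44.3 CPM at 48 h (log2 fold change -0.64, SE 0.124, adjusted p = 0.00233 from edgeR). The groups did not overlap for either gene. Both had negative log2 fold changes in every alternative run, although the values given here do not reach 1 in size. The 3′ end of Thra runs into Nr1d1 on the other strand, with 5.7% of the exon bases of Thra and 8.55% of those of Nr1d1 shared.

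Of the steroid hormone receptor genes, Esr1 had the largest increase of the family. It encodes the estrogen receptor ERα and stood at 32.2, 27.0 and 33.8 CPM at 0 h and at 59.5, 68.4 and 42.2 CPM at 48 h. All 48 h libraries lay above the 0 h libraries, with replicate 3 closest to them. The log2 fold change was 0.87 (SE 0.169, adjusted p = 0.0022 from edgeR), a level 1.83-fold higher. It stayed between 0.72 and 1.07 over the alternatives. Nr3c1, which encodes the glucocorticoid receptor, stood at 94.5, 99.6 and 111 CPM at 0 h and at 85.3, 81.4 and 88.0 CPM at 48 h. The groups did not overlap, but the log2 fold change of -0.26 did not pass the threshold (adjusted p = 0.0746 from edgeR), which it did with upper quartile factors (adjusted p = 0.0228) and with TMM factors over protein-coding genes alone (adjusted p = 0.0319). Nr3c2, the mineralocorticoid receptor gene, had a log2 fold change of -0.09 (95% interval -0.35 to 0.16), which lay between -0.19 and -0.0306 with 1 library left out.

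The REV-ERB genes of the clock moved in opposite directions. Nr1d1 (ENSMUSG00000020889.11; chromosome 11, 98767932 to 98775333) and Nr1d2 (ENSMUSG00000021775.11; chromosome 14, 18204054 to 18239127) encode REV-ERBα and REV-ERBβ, heme-binding repressors that close a feedback loop of the circadian clock. Nr1d1 stood at 287, 218 and 290.1 CPM at 0 h and at 78.1, 85.9 and 121 CPM at 48 h. Nr1d2 stood at 49.1, 51.2 and 58.9 CPM at 0 h and at 64.4, 81.5 and 94.5 CPM at 48 h. Neither gene's groups overlapped, and 48 h replicate 3 was the highest 48 h library for both. The log2 fold changes were -1.48 for Nr1d1 (SE 0.184, adjusted p = 0.000139 from edgeR) and 0.59 for Nr1d2 (SE 0.144, adjusted p = 0.00795). Both directions and calls held under each other scaling, filter and test, with the replicate block and with each library left out, with a highest adjusted p of 0.0389 for Nr1d2, without 0 h replicate 1. Nr1d2 did not reach a log2 fold change of 1. The ratio of Nr1d1 to Nr1d2 in TPM was 10.3, 7.47 and 8.65 at 0 h and 2.13, 1.85 and 2.26 at 48 h. Rora, which encodes an activator that competes with the REV-ERBs for the same DNA sites, had a log2 fold change of -0.02 (95% interval -0.35 to 0.30). The time of day at which each liver was taken is not given in the sources used here. The bases before the RefSeq starts of the 2 REV-ERB genes are given because these paralogs moved apart. They are 250 bases for Nr1d1 (chr11:98775378-98775627, minus strand, with no GENCODE gene in the window) and, for Nr1d2, the 229 of them that precede the first GENCODE exon (chr14:18239128-18239356, minus strand). Capitals mark the only nuclear receptor half-site, AGGTCA, on either strand, 77 bases before the start of Nr1d2.
Nr1d1: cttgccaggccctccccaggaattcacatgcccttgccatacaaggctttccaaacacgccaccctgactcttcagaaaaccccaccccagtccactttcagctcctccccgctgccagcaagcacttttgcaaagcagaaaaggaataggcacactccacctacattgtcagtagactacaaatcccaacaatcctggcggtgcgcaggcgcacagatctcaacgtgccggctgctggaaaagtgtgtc
Nr1d2: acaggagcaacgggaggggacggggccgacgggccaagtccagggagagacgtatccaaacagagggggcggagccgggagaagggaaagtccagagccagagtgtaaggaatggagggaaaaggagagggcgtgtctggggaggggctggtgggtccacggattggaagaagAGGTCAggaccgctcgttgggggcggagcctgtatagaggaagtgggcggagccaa
AGGTCA occurs in this window in 14.0% of all RefSeq promoters and in 10 of the 54 entries of the family, or 18.5%. Neither window holds CACGTG.

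HNF4α and the NR2 receptors are mostly orphan receptors, for which no regulated ligand is established. Hnf4a stood at 865, 748 and 778 CPM at 0 h and at 889.6, 894 and 1024 CPM at 48 h. All 48 h libraries lay above the 0 h libraries, the first of them by a small margin, and the log2 fold change of 0.23 (95% interval -0.07 to 0.53) did not pass the threshold (adjusted p = 0.2 from edgeR). With library size only it was 0.44 (adjusted p = 0.0314). Nr2c1, which encodes the testicular receptor TR2, fell from 33.2, 34.3 and 36.7 CPM to 21.7, 24.1 and 23.8 CPM (log2 fold change -0.58, SE 0.101, adjusted p = 0.00112 from edgeR). Its paralog Nr2c2 (TR4) stood at 30.5 ± 1.12 CPM (SD, n = 3) at 0 h and 25.6 ± 1.15 CPM at 48 h, with no overlap between the groups, and missed the threshold (adjusted p = 0.0626 from edgeR). It passed with upper quartile factors (adjusted p = 0.0166), with TMM factors over protein-coding genes alone (0.0276), with a filter of 1 CPM in 3 libraries (0.0396) and without 0 h replicate 2 (0.0389). Genes on the other strand cover 31.2% of its exon bases. Nr2f6, which encodes EAR2, stood at 54.7, 48.6 and 47.4 CPM at 0 h and at 40.6, 37.8 and 37.7 CPM at 48 h (log2 fold change -0.38, SE 0.101, adjusted p = 0.013 from edgeR). The call was lost with library size only (adjusted p = 0.193) and without 48 h replicate 2 (adjusted p = 0.0534), and Ocel1 on the other strand covers 54.4% of the exon bases of Nr2f6. Nr2f2, which encodes COUP-TFII, known from endothelial and mesenchymal cells as well as hepatocytes, stood at 53.0 ± 3.56 CPM (SD, n = 3) and 59.7 ± 11.5 CPM, a log2 fold change of 0.17 that was 0.0387 without 48 h replicate 3 and 0.31 without 48 h replicate 1.

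Of the NR4A genes, Nr4a1 fell, and the other 2 were counted at about 1 CPM or less. Nr4a1 (ENSMUSG00000023034.7; chromosome 15, 101254269 to 101274795), also called Nur77, stood at 88.9, 70.1 and 83.5 CPM at 0 h and at 27.3, 52.0 and 25.98 CPM at 48 h. Replicate 2 at 48 h was 1.9995 times the lowest 48 h library, and still lay below every 0 h library. The log2 fold change was -1.20 (SE 0.236, adjusted p = 0.00237 from edgeR). It was -1.60 without 48 h replicate 2. Nr4a2 had 24, 25 and 32 counts at 0 h and 21, 27 and 22 counts at 48 h, and Nr4a3 had 10, 5 and 8 counts at 0 h and 14, 14 and 18 counts at 48 h. Neither passed the threshold (adjusted p = 0.311 and 0.114 from edgeR), and the groups did not overlap after normalization. Such low counts leave wide intervals, of -0.97 to 0.24 for Nr4a2 and -0.03 to 1.69 for Nr4a3 on the log2 scale. The 3 genes share a feature of their promoters. Each has 4 copies of TGACG, on either strand, in the 250 bases before its RefSeq start, and 45 of the 32851 promoter entries, or 0.137%, hold that many or more. The cutoff of 4 is the count found in these 3 genes, so this share is a description and not a test. TGACG is the half-site of the cAMP response element bound by CREB. At least 1 copy is held by 17.8% of all entries and by 10 of the 54 entries of the family, or 18.5%. The windows are given with these letters in capitals, written CGTCA where they lie on the other strand. They are chr15:101266596-101266845 (plus strand) for Nr4a1, in an intron of the longer GENCODE gene, and chr2:57124004-57124253 (minus strand) for Nr4a2, just before the GENCODE gene. For Nr4a3 only the 98 bases before the first GENCODE exon are shown (chr4:48045055-48045152, plus strand), with 3 of its 4 copies.
Nr4a1: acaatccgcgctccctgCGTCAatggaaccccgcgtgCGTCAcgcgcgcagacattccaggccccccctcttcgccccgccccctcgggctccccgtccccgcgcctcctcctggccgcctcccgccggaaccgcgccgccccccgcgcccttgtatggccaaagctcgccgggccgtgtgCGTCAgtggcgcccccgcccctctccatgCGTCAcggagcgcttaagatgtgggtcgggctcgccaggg
Nr4a2: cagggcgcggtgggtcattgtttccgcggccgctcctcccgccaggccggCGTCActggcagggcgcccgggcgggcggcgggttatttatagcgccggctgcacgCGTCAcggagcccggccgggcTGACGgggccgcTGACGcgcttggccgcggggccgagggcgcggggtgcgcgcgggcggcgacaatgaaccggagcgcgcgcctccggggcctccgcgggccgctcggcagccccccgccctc
Nr4a3: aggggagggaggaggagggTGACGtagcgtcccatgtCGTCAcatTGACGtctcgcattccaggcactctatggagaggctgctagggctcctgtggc
In level the 3 genes lay far apart at 0 h, at 59.7 TPM for Nr4a1, 0.551 TPM for Nr4a2 and 0.107 TPM for Nr4a3.

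The last 2 small groups were mixed. Nr6a1, which encodes the germ cell nuclear factor (GCNF), fell from 34.1, 32.9 and 38.3 CPM to 24.9, 21.97 and 18.9 CPM (log2 fold change -0.68, SE 0.125, adjusted p = 0.00163 from edgeR). Nr5a2, which encodes LRH-1, a regulator of bile acid synthesis, had a log2 fold change of -0.06 (95% interval -0.32 to 0.19), which lay between -0.15 and -0.0118 with 1 library left out. The estrogen-related receptors act on mitochondrial genes. Esrra stood at 23.2, 22.8 and 21.8 CPM at 0 h and at 25.3, 25.8 and 24.0 CPM at 48 h, without overlap, and did not pass the threshold (log2 fold change 0.15, adjusted p = 0.265 from edgeR). Esrrg stood at 6.06, 4.03 and 8.23 CPM at 0 h and at 2.67, 4.79 and 3.86 CPM at 48 h (log2 fold change -0.69, adjusted p = 0.0713 from edgeR). It passed with DESeq2 (adjusted p = 0.0383) and 4 other alternatives, and with 1 library left out its log2 fold change lay between -0.93 and -0.43, the latter without 0 h replicate 3 (adjusted p = 0.277).

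**Figure D3:**
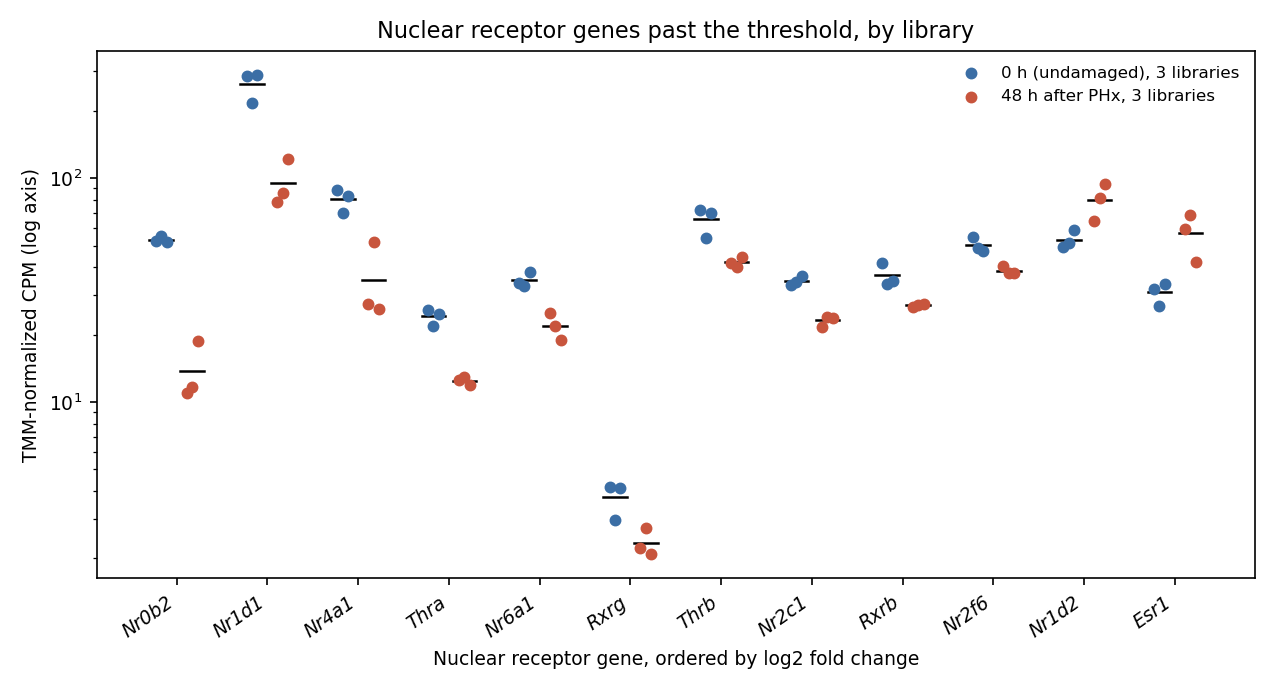
TMM-normalized CPM (log axis) of the 12 nuclear receptor genes past the threshold, with a point per library and a bar at the mean of 3 libraries. In each gene the 3 libraries at 48 h lie wholly below or, for Nr1d2 and Esr1, wholly above the 3 at 0 h.

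Nuclear receptors outside the 37 were few in these libraries. Of 12 further family members, 5 were counted highly enough to be tested, and 2 of these were lower at 48 h (19.3% of all genes were). The count was 1 without 0 h replicate 2 or 3, without 48 h replicate 2 or 3, with the replicate block and with a filter of 1 CPM in 3 libraries. One of the 2 was Esrrb, at under 1 CPM.

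Cofactors are the proteins that carry the signal of a bound receptor to chromatin. Of 14 coactivator genes tested, 3 were lower and 2 were higher, or 35.7% in all against 40.7% of all genes, with a median log2 fold change of -0.0068. With library size only 1 was lower, and 1 was higher without 0 h replicate 2 or 3 or 48 h replicate 2 or 3. Pprc1, a growth-regulated relative of PGC-1α, rose from 34.6 ± 10.6 to 80.6 ± 5.69 CPM (SD, n = 3), and Ppargc1b, which encodes PGC-1β, fell from 19.2 ± 3.61 to 10.8 ± 2.46 CPM. Ncoa3, a steroid receptor coactivator gene, had a log2 fold change of -0.48, a call lost with library size only (adjusted p = 0.0732). Of 9 corepressor genes, 2 were higher, or 22.2%, against 21.4% of all genes (Tbl1xr1 with a log2 fold change of 0.40 and Lcor with 0.31, adjusted p = 0.0253 and 0.0444 from edgeR). The call of Tbl1xr1 was lost with each of 4 libraries left out in turn, and that of Lcor under most alternatives, whereas 5 corepressor genes were higher with library size only. Ncor1, the main corepressor of liver, stood at 241 ± 12.5 and 219.6 ± 26.9 CPM.

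Genes that make, activate or clear ligands were mostly lower. Of 16 such genes tested, 10 were lower and 1 was higher, against 19.3% and 21.4% of all genes, with a median log2 fold change of -1.21. With library size only, 2 were higher. The smallest adjusted p of the list was that of Hsd11b1, whose enzyme regenerates active glucocorticoid, from 307 ± 25.2 to 52.8 ± 4.89 CPM (SD, n = 3; log2 fold change -2.54, adjusted p = 2.36e-07 from edgeR). Slc27a5, needed for bile acid conjugation, and Dhrs3, which turns retinaldehyde back into retinol, had log2 fold changes of -1.59 and -1.67. The gene that rose was Cyp7a1, which encodes the rate-limiting enzyme of bile acid synthesis, from 78.4 ± 28.3 to 263 ± 120 CPM (log2 fold change 1.75, adjusted p = 0.0018 from edgeR).

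Known target genes of the receptors were mostly lower. The 9 target lists were drawn up from general knowledge and overlap in part. They do not separate genes that a receptor raises from genes that it lowers, so a count by direction does not measure receptor activity. Of their 94 tested genes outside the 37, each counted once, 50 were lower (53.2%) and 14 were higher (14.9%), against 19.3% and 21.4% of all genes tested. Their median log2 fold change was -0.73, against -0.0033 over all genes. Among 11 LXR targets, which act in cholesterol export and fatty acid synthesis, 9 were lower, with a median of -1.04. Scd1, a fatty acid desaturase gene, fell from 12100.1 ± 2827 to 947 ± 349 CPM (SD, n = 3), and the sterol transporter genes Abcg8 and Abcg5 had log2 fold changes of -1.86 and -1.59. Of 9 FXR targets, 5 were lower and 2 were higher, Cyp7a1 and Slc51b (0.179 ± 0.136 to 0.559 ± 0.194 CPM, SD, n = 3; adjusted p = 0.0408 from edgeR). Only 1 was higher without 0 h replicate 2, without 48 h replicate 1 or 3, and with a filter of 1 CPM in 3 libraries. One of the 5 was Nr0b2, and Cyp8b1, which sets the type of bile acid made, had a log2 fold change of -3.02. The bile acid transporter genes Slc10a1 and Abcb11 had log2 fold changes of -1.26 and -1.04. Of 14 HNF4α targets, 9 were lower, with a median of -0.75, beside the Hnf4a values above. G6pc, the last enzyme of glucose release, had a log2 fold change of -3.14, Pklr of -1.93 and Cyp27a1 of -1.46.

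Targets of PXR and CAR, enzymes and transporters of drug metabolism, moved both ways, with 7 of 14 lower and 4 higher. The shares of all genes to set beside this and the following lists are again 19.3% lower and 21.4% higher. Ces2a, Abcc3 and Ugt1a1 had log2 fold changes of -1.89, -1.74 and -1.58. The 4 that rose were Gsta1, Abcb1a, Por and Alas1, with log2 fold changes of 2.37, 1.32, 1.29 and 0.64. Among 17 PPARα targets, 8 were lower and 1 was higher, Pdk4, a brake on glucose oxidation (log2 fold change 1.21). With library size only 5 were lower, and 2 were higher without 48 h replicate 1 and with no filter on low counts. Acaa1b, which encodes a thiolase of fatty acid oxidation, had a log2 fold change of -2.78. Of 6 thyroid hormone targets, 4 were lower and 1 was higher, beside the decreases of both receptors. Dio1, whose enzyme activates the hormone, fell from 104.8 ± 17.3 to 28.6 ± 6.43 CPM (SD, n = 3), Thrsp had a log2 fold change of -2.07 and Klf9 of -1.03.

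Targets of the glucocorticoid receptor split, with 5 of 13 higher and 4 lower. Lcn2, an acute-phase gene as well, Fkbp5, Per1, Mt1 and Mt2 were higher, with a log2 fold change of 9.42 for Lcn2. Mt2 was under the floor of 3 counts at 0 h (1, 0 and 1 counts, against 58, 80 and 36 at 48 h). Whether these genes moved through the glucocorticoid receptor was not tested. G6pc, which is also on the HNF4α list, Tsc22d3, Dusp1 and Tdo2 were lower. Fkbp5, which encodes a chaperone that restrains the receptor, rose from 10.0 ± 1.38 to 46.5 ± 4.68 CPM (SD, n = 3). Tsc22d3, a classical target that encodes GILZ, fell from 145 ± 34.6 to 50.6 ± 11.6 CPM. Of 5 retinoic acid targets tested, 1 was lower (Dhrs3) and 1 was higher, which is near the shares of all genes, with a median log2 fold change of 0.27. For this list 2 were lower without 0 h replicate 1 and with no filter on low counts. Of 8 REV-ERB and ROR targets, 5 were lower. Arntl and Npas2, clock activator genes that REV-ERBs repress, fell from 30.9 ± 7.33 to 7.97 ± 4.31 CPM and from 15.5 ± 6.81 to 0.534 ± 0.336 CPM (SD, n = 3; log2 fold changes -1.96 and -4.86, adjusted p = 0.000989 and 2.31e-05 from edgeR). Elovl3 had a log2 fold change of -5.11. Clock itself had a log2 fold change of 0.12 and did not pass the threshold (adjusted p = 0.432 from edgeR).

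**Figure D4:**
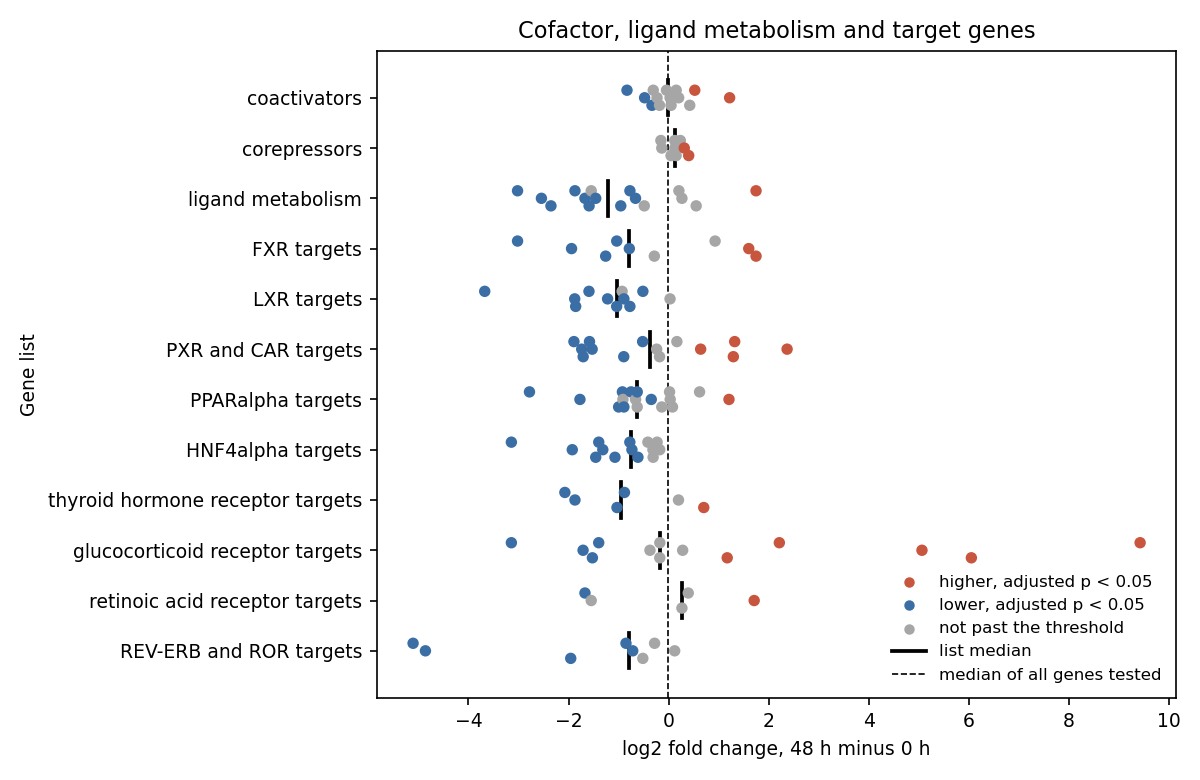
Log2 fold change (48 h minus 0 h) of each tested gene in the cofactor, ligand metabolism and target lists, with the list median as a black bar and the median of all genes tested as a dashed line. The medians of the cofactor lists lie near the dashed line. Those of the ligand metabolism, FXR, LXR, HNF4α, thyroid hormone, and REV-ERB and ROR lists lie between -0.75 and -1.21.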

How the data were processed

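Bulk RNA-Seq of 6 hepatocyte preparations was analysed. The authors deposited raw read counts per gene, 1 library per file, without normalization. The submitters' processing notes name FastQC 0.11.5, Trim Galore 0.6.4, STAR 2.6, HTSeq 0.12.4, DESeq2 and the build mm10. The counting mode and strand setting are not given in the sources used here. Reads on no gene (24.3% to 32.7%) and ambiguous reads (4.27% to 5.29%) were left out, so overlapping genes may be undercounted. All gene identifiers were those of GENCODE M21 (GRCm38), the source of names, coordinates and exon lengths. The paper states a general comparison of means, which was not used on these counts.

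Time points were compared with edgeR 4.0.16 (R 4.3.3), using TMM factors and the quasi-likelihood test over the 17037 genes that reached 10 counts in 3 or more libraries, with Benjamini-Hochberg adjustment over all of them. The standard error is the log2 fold change divided by the square root of F. The test was tried on simulated counts first. Per the study, libraries are from separate preparations, and no pair within a time point was alike within counting noise (mean chi-square 25.8 to 76.1). The floor of 3 counts covers counting error only, and reads carry no molecular identifiers.

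All 37 genes are named. Of each pathway list, the text names up to 3 genes past the threshold with the smallest adjusted p and a mean of at least 1 CPM. Others were named after their values were seen: the list members that went against their list, Esrrb, Ncor1, Clock and the glucocorticoid targets other than Lcn2, Fkbp5 and G6pc. Some genes under this rule are not reported here. The ratios of TPM between gene pairs were also chosen after seeing values and carry no test. The genes, lists and motifs were chosen with earlier results of these data known. Promoter letters are from RefSeq (GRCm38.p6), which matched 35 of the 37 genes by symbol. Alternatives were other normalizations, filters, DESeq2 1.42.0, limma-voom (limma 3.58.1), a fold change threshold, a replicate block and leaving out each library.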

Additional observations from a re-analysis of the deposited data

How the results depend on the processing

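A log2 fold change of 1 or more in size was reached by 1651 of the 3638 higher and 1353 of the 3288 lower genes, and by 3 lower nuclear receptor genes and 0 higher, since both higher ones had smaller values. Library size only gave 5309 higher and 2108 lower genes in all, and 6 higher and 7 lower among the nuclear receptors. Hnf4a, Nr1i2, Esrra and Rara were then called higher, and Nr2f6, Rxrg and Rxrb were no longer called. Its median shift of 0.20 turned the sign of Nr1h2 (0.20), Nr1i3 (0.0487), Nr3c2 (0.11), Rora (0.18) and Nr5a2 (0.14), none of which was called. Upper quartile factors and TMM factors from protein-coding genes turned Nr1h3 (-0.0416 and -0.0132) and Rxra (-0.0388 and -0.00953). Leaving out 1 library at a time gave log2 fold changes of -0.11 to 0.17 for Nr1h3, -0.0599 to 0.0597 for Nr1h2, -0.30 to 0.0680 for Nr1i3, -0.0689 to 0.16 for Rxra and -0.17 to 0.0730 for Rora, and 2 higher and 9 to 14 lower nuclear receptors. The 9 calls other than Rxrb, Rxrg and Nr2f6 held in each alternative on scaling, filter, test, block and library left out. The same replicate numbers mark different preparations, and deviations of same-numbered libraries correlated at -0.138 to 0.0335, so they share only a number. With the replicate block, 3237 genes were higher and 2884 lower, and 2 nuclear receptors were higher and 9 lower, with Rxrg lost (adjusted p = 0.0608 from edgeR). Vdr and Nr2f1 were too lowly counted for a call at this depth.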

Other observations

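The spread between libraries differed among the nuclear receptor genes. The coefficient of variation of TMM-normalized CPM had a median of 11.5% at 0 h and 12.3% at 48 h over the 35 genes tested. Rxra was among the most even at 48 h, with 0.453%, against 15.7% at 0 h. The largest values at 0 h were 43.1% for Rarb, 40.2% for Ppard and 39.2% for Rarg, and at 48 h 41.7% for Nr4a1 and 37.4% for Rarb. In Ppard the highest 0 h library stood 2.41 times above the lowest. These values rest on 3 libraries per time point and were not tested.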
